A study of Mus musculus with 5 samples.

Results

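The TGF-β signalling genes examined here are 9 mouse genes chosen by symbol: the ligands Tgfb1, Tgfb2 and Tgfb3, the receptors Tgfbr1, Tgfbr2 and Tgfbr3, the signal transducer Smad3, and the feedback genes Smad7 and Skil. They are 9 of 17923 genes listed in at least 1 of 5 RNA-seq libraries, and all 9 passed the filter on low counts on their own. The libraries came from cell lines established from thyroid tumors of mice expressing BRAFV600E. The 2 BVE-Ctnnb1wt libraries, called wt here, carry the oncogene with Ctnnb1, the gene of β-catenin, intact. Both are of the line BVE at passage 20, replicate 1 labelled without and replicate 2 labelled with thyroid-stimulating hormone (TSH). Called null here, the 3 libraries of BVE-Ctnnb1null cells carry the same oncogene and are labelled as having lost Ctnnb1. They are the lines BVECTN_4 (replicate 1, passage 8, labelled without TSH), BVECTN_4A (replicate 2, passage 11) and BVECTN_5 (replicate 3, passage 7), and the labels give no TSH state for replicates 2 and 3. The growth protocol in the labels states 4 mU/mL TSH for the cultures and about 25 passages for wt and 20 for null cells, so it differs from the library names. All wt cells are thus 1 line and each null library is another line, so genotype cannot be told apart from line or passage, and p-values measure only the spread between these libraries. The age of the mice and the promoter that drives the deletion are not given in the sources used here.

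TGF-β ligands are secreted in a latent form, held by their own propeptide and by latent TGF-β binding proteins in the matrix. Once released, a ligand binds the type II receptor TGFBR2, which recruits and phosphorylates the type I receptor TGFBR1. TGFBR1 then phosphorylates SMAD2 and SMAD3, which enter the nucleus with SMAD4, and SMAD7 and the SKIL protein (SnoN) dampen the signal. In thyroid epithelium TGF-β is known as a growth inhibitor and an inducer of epithelial-mesenchymal transition.

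For each library the deposited files give, per transcript, estimated reads and FPKM, a level scaled to transcript length and library total. Both were summed per gene. The libraries held 30432737 and 30713079 estimated counts (wt) and 29929677, 29360002 and 29415980 (null replicates 1 to 3). For a gene listed at 0, 3 counts were taken as the upper limit, which equal 0.098 to 0.102 CPM (counts scaled to library size). This limit covers counting error only. The 10 most abundant genes took at least 14.3% of wt counts and at most 8.0% of null counts. The groups were therefore compared both in FPKM and in CPM after TMM normalization, and levels of single libraries are given mostly in FPKM. The RNA of the targeted gene did not show the loss that the labels name. Ctnnb1 FPKM was 59.3 and 73.8 in wt and 124.6, 196.3 and 117.8 in null replicates 1, 2 and 3. In FPKM it was thus higher in every library labelled null, as were 35.9% of all genes tested. In CPM after TMM normalization, null replicate 3 lay below wt replicate 2, so the groups overlapped. These libraries held 12285 and 8043 Ctnnb1 counts, and TMM scaled their sizes by 1.219 and 0.735. The values per transcript do not show whether deleted exons are missing, and every direction below is between libraries as labelled.

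The labelled cell type, thyroid epithelium, was only partly borne out by its defining genes. Of 12 follicular genes, between 2 and 4 reached an FPKM of 1 in any library. The TSH receptor (Tshr) was at 0.11 or less in every library, whereas the transcription factor Nkx2-1 had an FPKM of 9.21 and 15.02 in wt and 9.26, 34.8 and 0.26 in null replicates 1, 2 and 3. Pax8, another thyroid transcription factor, was the only follicular gene above both wt libraries in every null library, at 0.40 and 0.17 in wt and 18.2, 12.8 and 2.56 in null (log2 fold change 4.75, SE 1.09, edgeR adjusted p = 0.180, and 7.72e-05 with DESeq2). Thyroglobulin (Tg), the hormone precursor, was below wt in every null library, at 0.80 and 0.86 in wt and 0.04, 0.51 and 0.34 in null. The summed FPKM of 9 epithelial genes was 1106 and 1782 in wt and 13960, 705.9 and 1448 in null. Null replicate 1 was the most epithelial library and null replicate 2 listed no Cdh1 or Epcam. The summed FPKM of 10 fibroblast genes was 290.0 and 255.0 in wt and 1.7, 148.1 and 1414 in null, so the lines span a wide range of mesenchymal gene expression. Of 7 leukocyte genes, Ptprc, Adgre1 and Cd3e were listed in none of the libraries. The most abundant of the others, the lysosomal and macrophage gene Cd68, had an FPKM of 6.09 and 14.2 in wt and 59.8, 1.0 and 39.9 in null, and Csf1r, Lyz2 and Cd79a stayed at 1.39 or less. Of 5 endothelial genes, Pecam1, Cdh5, Tek and Vwf stayed at 0.07 or less, and Kdr was at 0.62 (102 counts) in null replicate 3 and at 0.02 or less in the other libraries.

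Among the receptors, Tgfbr1 alone separated the groups in FPKM. Tgfbr1, which encodes the type I receptor kinase ALK5, was barely expressed in wt cells. It had 14 and 36 wt counts, an FPKM of 0.08 and 0.20. In null replicates 1, 2 and 3 it had 171, 718 and 447 counts, an FPKM of 0.98, 4.2 and 2.61. No null library overlapped with wt, and even the lowest null value was several times the highest wt value. The mean FPKM was 0.14 ± 0.0849 (SD, n = 2) in wt and 2.60 ± 1.61 (SD, n = 3) in null, an 18.6-fold ratio of means. By edgeR's quasi-likelihood fit the log2 fold change was 3.55 (standard error, SE, of 0.95, unadjusted p = 0.00785, edgeR adjusted p = 0.191 by Benjamini-Hochberg), which does not pass 0.05. DESeq2 called the gene (adjusted p = 0.00233), while the adjusted p ranged up to 0.833 over the alternative analyses, where the log2 fold change lay between 1.55 and 4.52.

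The 250 bases before the annotated start of Tgfbr1, Smad3 and Tgfb2 are shown because these genes lie above both wt libraries in every null library. They are RefSeq sequences of GRCm38.p6, while the build used for the deposited values is not stated. A window was found for 5 of the 9 genes (also for Tgfb1 and Tgfbr2), and Tgfbr3, Tgfb3, Skil and Smad7 had no entry. The windows are chr4:47352972-47353221 on the + strand for Tgfbr1, which has a second annotated start further downstream, chr9:63757995-63758244 on the - strand for Smad3, and chr1:186705990-186706239 on the - strand for Tgfb2. Capitals mark the motifs searched on both strands, with overlapping matches counted separately.
Tgfbr1: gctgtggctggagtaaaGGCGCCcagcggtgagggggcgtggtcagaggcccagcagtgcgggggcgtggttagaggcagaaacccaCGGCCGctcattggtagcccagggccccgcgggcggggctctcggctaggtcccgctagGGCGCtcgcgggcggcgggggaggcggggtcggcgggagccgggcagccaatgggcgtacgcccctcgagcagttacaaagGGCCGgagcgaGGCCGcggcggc
Smad3: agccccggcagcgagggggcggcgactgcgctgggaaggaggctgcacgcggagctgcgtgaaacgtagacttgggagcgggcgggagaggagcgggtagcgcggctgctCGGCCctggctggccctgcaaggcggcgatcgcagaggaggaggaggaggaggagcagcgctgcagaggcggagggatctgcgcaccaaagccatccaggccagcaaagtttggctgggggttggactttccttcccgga
Tgfb2: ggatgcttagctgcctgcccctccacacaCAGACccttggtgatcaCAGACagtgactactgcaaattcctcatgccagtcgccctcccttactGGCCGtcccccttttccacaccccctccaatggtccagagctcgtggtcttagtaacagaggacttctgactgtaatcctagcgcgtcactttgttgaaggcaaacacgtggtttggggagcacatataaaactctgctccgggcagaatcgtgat
The Smad box CAGAC occurs 2 times in the Tgfb2 window and 0 times in the other windows shown. It is found in 42.2% of all 32851 promoter windows of this length. The GC-rich Smad site spelled GGCGC occurs 3 times before Tgfbr1 and in 32.0% of all windows. Its other form GGCCG occurs 4 times before Tgfbr1 and once each before Smad3 and Tgfb2, and in 30.4% of all windows. The AP-1 site TGACTCA, which 4.46% of all windows hold, occurs in none of the windows shown. The Tgfbr1 window is 74.8% G or C, the Smad3 window 69.2% and the Tgfb2 window 53.6%, against a median of 52.4% over all windows. Among the windows not shown, that of Tgfbr2, whose FPKM overlapped between the groups, holds 1 CAGAC and 4 matches of GGCCG. That of Tgfb1 holds 1 match of GGCGC and 2 of GGCCG. The downstream Tgfbr1 window holds 1 CAGAC and is 52.8% G or C. These matches describe the letters of the windows and say nothing of binding.

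Tgfbr2, the ligand-binding type II receptor, was the most abundant receptor and hardly differed. Its FPKM was 30.8 and 29.2 in wt and 32.7, 38.9 and 26.6 in null replicates 1, 2 and 3, and the groups overlapped. In CPM after TMM normalization, which corrects for the share of counts taken by abundant genes, every null library lay below both wt libraries, with 177.6 and 192.4 in wt and 144.9, 153.5 and 105.5 in null. The direction thus depended on the scaling. The log2 fold change was -0.46 (SE 0.40, edgeR adjusted p = 0.553) on counts and 0.11 on log2(FPKM + 0.1).

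Tgfbr3 encodes betaglycan, the co-receptor that presents TGF-β2 to the type II receptor, and its difference came from 1 line. The FPKM was 0.37 and 0.30 in wt, 0.23 and 0.47 in null replicates 1 and 2, and 8.93 in null replicate 3 (BVECTN_5). Only that library stood out, and the other null libraries lay on either side of the wt libraries. The log2 fold change of 2.64 (SE 1.59, edgeR adjusted p = 0.402) became -0.55 without null replicate 3. The same library had the highest summed FPKM of fibroblast genes, 1414, led by Col1a1 at 570.5, and their part in the betaglycan value was not tested.

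**Figure D1:**
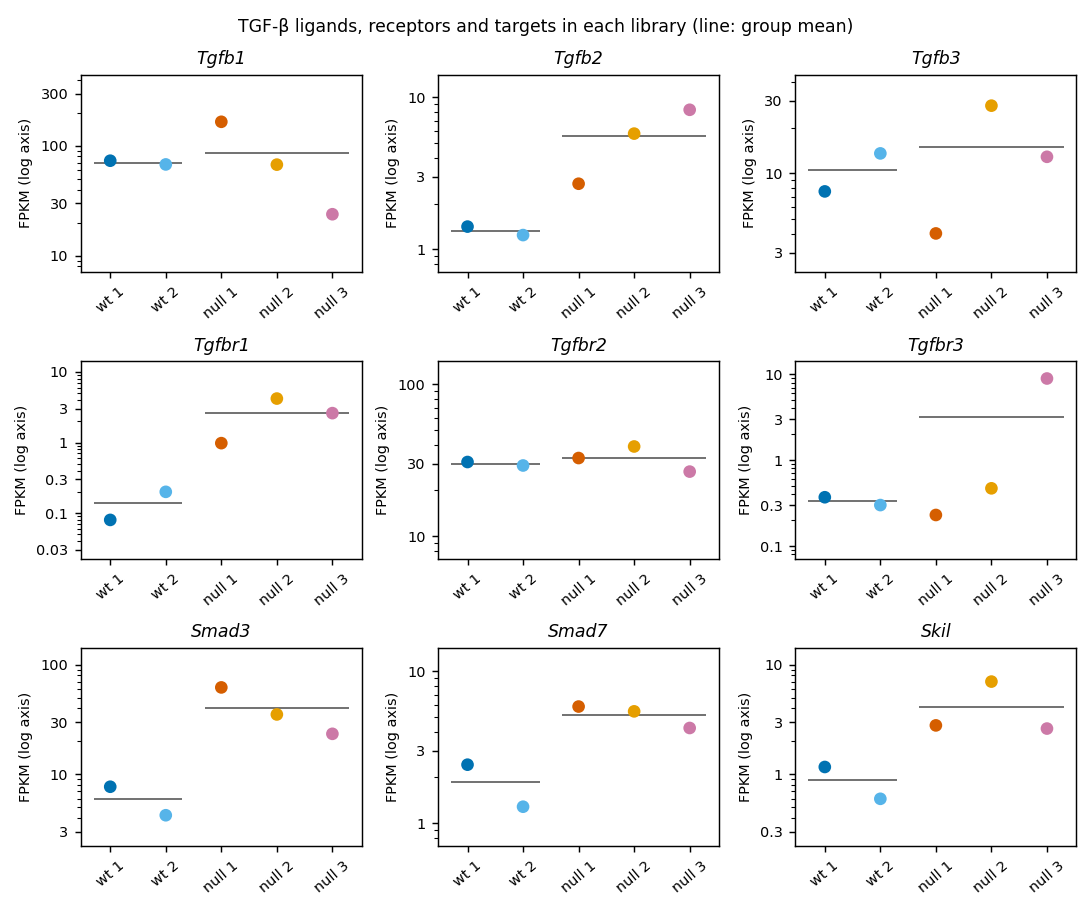
FPKM of the 9 genes (one panel each, log axis) in wt replicates 1 and 2 and null replicates 1 to 3, with a horizontal line at each group mean. Tgfb2, Tgfbr1, Smad3, Smad7 and Skil lie above both wt libraries in all 3 null libraries, whereas Tgfb1, Tgfb3, Tgfbr2 and Tgfbr3 overlap.

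Among the ligands, Tgfb1 was the main transcript in every library, and only Tgfb2 separated the groups. Tgfb2, the isoform that needs betaglycan most for receptor binding, had an FPKM of 1.41 and 1.24 in wt and 2.70, 5.77 and 8.28 in null replicates 1, 2 and 3. All 3 null libraries were above both wt libraries, null replicate 1 by the least. The mean was 1.33 ± 0.120 (SD, n = 2) in wt and 5.58 ± 2.79 (SD, n = 3) in null, a 4.21-fold ratio. The log2 fold change was 1.47 (SE 0.60, unadjusted p = 0.0474, edgeR adjusted p = 0.266).

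Tgfb1 had an FPKM of 73.2 and 67.7 in wt, and of 165.7, 67.4 and 23.8 in null replicates 1, 2 and 3. The null lines ran from above to below the wt libraries, a 6.96-fold range among them against 1.08-fold between the wt libraries. Tgfb1 had a log2 fold change of -0.25 (SE 0.80, edgeR adjusted p = 0.885), -1.29 without null replicate 1 and 0.13 without null replicate 3.
Tgfb3 had an FPKM of 7.60 and 13.5 in wt and 4.02, 27.9 and 12.8 in null, so null replicate 1 was the lowest and null replicate 2 the highest of all libraries. Its log2 fold change was -0.16 (SE 0.78, edgeR adjusted p = 0.926), -1.04 without null replicate 2, 0.25 without null replicate 1, 0.45 without wt replicate 2, and 0.16 on log2(FPKM + 0.1).

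Both the mix of ligands and their sum varied among the null lines. Tgfb1 made up 89.0% and 82.1% of the summed ligand FPKM in wt, and 96.1%, 66.7% and 53.0% in null replicates 1, 2 and 3. Tgfb2 made up 1.71% and 1.503% in wt and 1.57%, 5.71% and 18.4% in null. The summed ligand FPKM was 82.2 and 82.5 in wt and 172.4, 101.1 and 44.9 in null, so the line with the lowest sum, null replicate 3, also had the largest Tgfb2 share. Of the summed receptor FPKM, Tgfbr1 made up 0.256% and 0.674% in wt and 2.89%, 9.64% and 6.84% in null.

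**Figure D2:**
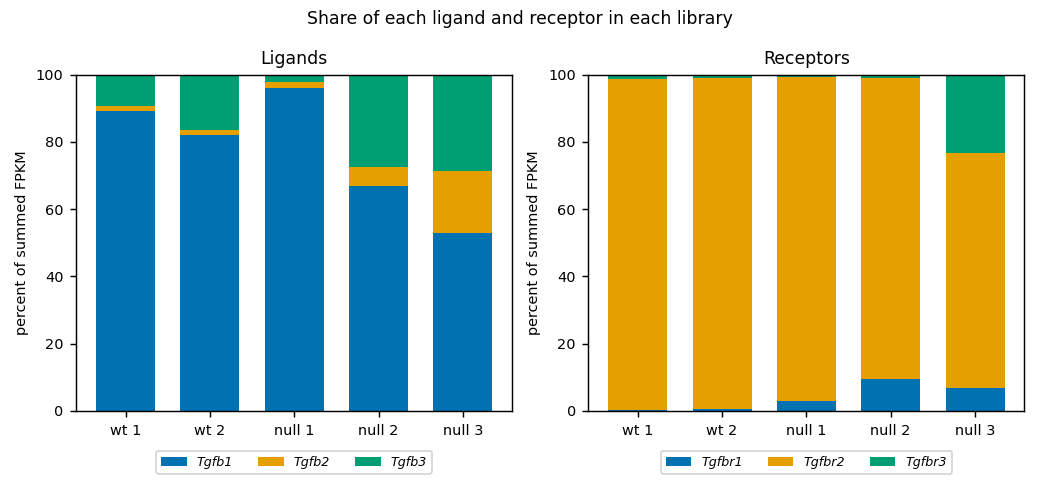
Percent of the summed FPKM of the 3 ligands (left) and the 3 receptors (right) contributed by each gene, in each of the 5 libraries (stacked bars). Tgfb1 dominates the ligands in wt and in null replicate 1 (96.1%), and the Tgfbr1 share of the receptors is 0.674% or less in wt and 2.89% or more in null.

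Smad3, the receptor-activated transducer, was higher in every null library. Its FPKM was 7.73 and 4.25 in wt and 62.1, 35.2 and 23.5 in null replicates 1, 2 and 3, and no null value came near the wt values. The mean was 5.99 ± 2.46 (SD, n = 2) in wt and 40.3 ± 19.8 (SD, n = 3) in null, a 6.72-fold ratio. Its log2 fold change was 2.22 (SE 0.63, unadjusted p = 0.0102, edgeR adjusted p = 0.192). DESeq2 called Smad3 (adjusted p = 0.0163), and over the alternative analyses the log2 fold change lay between 1.65 and 2.69 and the adjusted p reached 0.833.

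The feedback genes also had higher levels in every null library. Smad7, the inhibitory Smad that targets the activated receptor, had an FPKM of 2.42 and 1.28 in wt and 5.84, 5.43 and 4.22 in null, with means of 1.85 ± 0.806 (SD, n = 2) and 5.16 ± 0.842 (SD, n = 3). The null lines agreed closely, with a 1.38-fold range. The log2 fold change was 0.93 (SE 0.53, edgeR adjusted p = 0.376), and 0.61 without wt replicate 2.
Skil, whose protein SnoN represses Smad target genes, had an FPKM of 1.17 and 0.60 in wt and 2.80, 7.02 and 2.62 in null. Null replicate 2 was the highest, and the other null lines were close to each other. Its log2 fold change was 1.67 (SE 0.66, unadjusted p = 0.0411, edgeR adjusted p = 0.253), and 1.01 without null replicate 2.

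Over the whole comparison, edgeR called 0 of the 9 genes at an adjusted p under 0.05, as it called none of the 13240 genes tested (0% higher and 0% lower). At an unadjusted p under 0.05, 4 of the 9 genes (Tgfb2, Tgfbr1, Smad3 and Skil) were higher in null and 0 were lower, against 12.4% and 6.07% of all genes. DESeq2 called 2 of the 9 higher (Tgfbr1 and Smad3) and 0 lower, against 8.48% and 3.71% of all genes with an adjusted p. In FPKM, 5 of the 9 genes were above both wt libraries in every null library and 0 below, against 35.9% and 7.22% of all genes. In CPM after TMM normalization, 5 were above and 1, Tgfbr2, below, against 22.6% and 17.3%. The median log2 fold change of all genes tested was 0.29 with edgeR, 0.21 with DESeq2 and 0.61 with limma on log2(FPKM + 0.1). The limma fit also used another unit and gene set (11888 genes), so its median does not show the effect of scaling alone. The 9 genes did not move alike: Tgfbr1 had 3.32 with limma against 3.55 with edgeR, and Tgfbr2 0.11 against -0.46. Relative to the edgeR median, Tgfbr1 stood at 3.26, Tgfbr3 at 2.34, Smad3 at 1.93, Skil at 1.37, Tgfb2 at 1.17, Smad7 at 0.64, Tgfb3 at -0.45, Tgfb1 at -0.54 and Tgfbr2 at -0.75. In a two-sided exact permutation test on log2(FPKM + 0.1), p was 0.1 for Tgfbr1, Smad3, Smad7 and Skil, the smallest value that 2 libraries against 3 allow, and between 0.2 and 0.9 for the others.

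**Figure D3:**
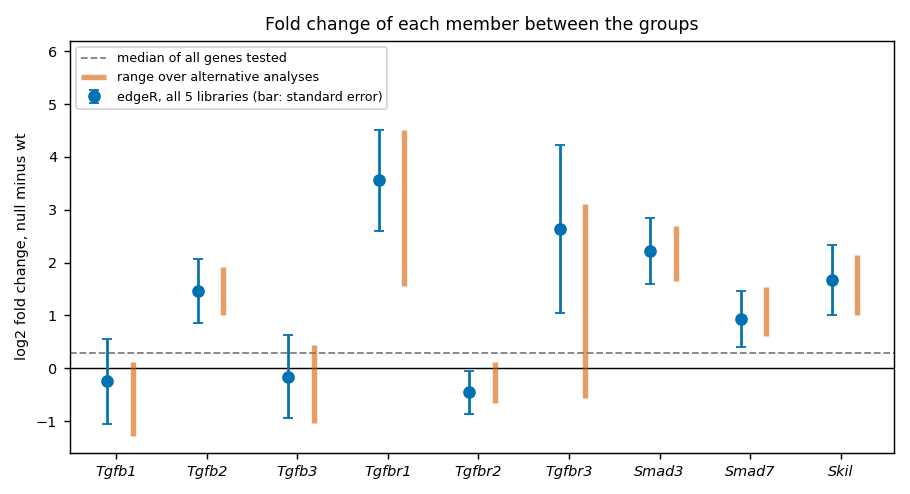
Log2 fold change of null against wt for each gene from edgeR over all 5 libraries (points, with standard errors, n = 2 wt and 3 null) and its range over the alternative analyses (bars). Tgfbr1, Smad3, Skil, Tgfb2 and Smad7 stay above 0 in each of these analyses, and the ranges of Tgfb1, Tgfb3, Tgfbr2 and Tgfbr3 cross 0.

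Ratios of FPKM inside a library do not depend on the scaling between libraries. The ratio of Tgfbr2 to Tgfbr1, the partners of the signalling complex, was 384.4 and 145.8 in wt and 33.3, 9.26 and 10.2 in null replicates 1, 2 and 3. The groups did not overlap, and the mean log2 ratio was 7.89 ± 0.989 (SD, n = 2) in wt and 3.87 ± 1.03 (SD, n = 3) in null (two-sided exact permutation test, p = 0.1, adjusted p = 0.35 over the 7 ratios compared). The ratio of Smad7 to Smad3, inhibitor to transducer, was 0.313 and 0.301 in wt and 0.094, 0.154 and 0.180 in null, again with no overlap (exact p = 0.1, adjusted p = 0.35). The null lines therefore carried more Smad3 RNA per Smad7 RNA, although both were higher than in wt. Skil per Smad3 overlapped between the groups, at 0.151 and 0.141 in wt and 0.0451, 0.199 and 0.112 in null, so Skil per Smad3 was highest in null replicate 2. The other ratios had an exact p between 0.2 and 1, and only that of Tgfb2 to Tgfb3 was without overlap, at 0.186 and 0.0917 in wt and 0.672, 0.207 and 0.645 in null.

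Taken line by line, all 3 null libraries had higher Tgfb2, Tgfbr1, Smad3, Smad7 and Skil than wt, while Tgfb1 and Tgfb3 went in different directions. A gene was counted as past the fold at a 2-fold difference of FPKM + 0.1 from the wt mean on the log2 scale, with no test since each line is 1 library. Null replicate 1 (BVECTN_4) had 5 of the 9 genes at least 2-fold higher and 1, Tgfb3, lower, against 36.2% and 12.0% of all genes. It had the highest Tgfb1 and Smad3 of the 5 libraries and the highest summed epithelial FPKM, 13960. Null replicate 2 (BVECTN_4A) had 6 higher and 0 lower, against 39.5% and 10.1%, with the highest Tgfb3, Tgfbr1 and Skil. Null replicate 3 (BVECTN_5) had 6 higher and 1, Tgfb1, lower, against 41.9% and 8.81%, with the highest Tgfb2 and Tgfbr3. The log2 differences of Tgfbr1 were 2.22, 4.21 and 3.54 in null replicates 1, 2 and 3, and those of Smad3 were 3.41, 2.60 and 2.01, so the line with the smallest Tgfbr1 difference had the largest for Smad3.

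The wt libraries share 1 line and passage and differ in the TSH label. On log2(FPKM + 0.1), 0 of the 9 genes differed 2-fold between them, where 3.87% of all genes were higher and 9.0% lower in the library labelled with TSH. Without the added 0.1, Tgfbr1 differed 2.5-fold, on 14 and 36 counts. Smad3, Smad7 and Skil were lower in that library, by -0.85, -0.87 and -0.86 on log2(FPKM + 0.1), and Tgfb3 and Tgfbr1 were higher, by 0.82 and 0.74. By exact binomial tests on counts, a comparison of these 2 libraries and not of TSH, 7 of the 9 genes passed an adjusted p of 0.05 (all but Tgfb2 and Tgfbr3), against 56.8% of all genes. These tests cover counting error only and treat reads as independent, so with 1 library each they show no effect of a condition. The TSH label cannot be told apart from other variation between these libraries.

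**Figure D4:**
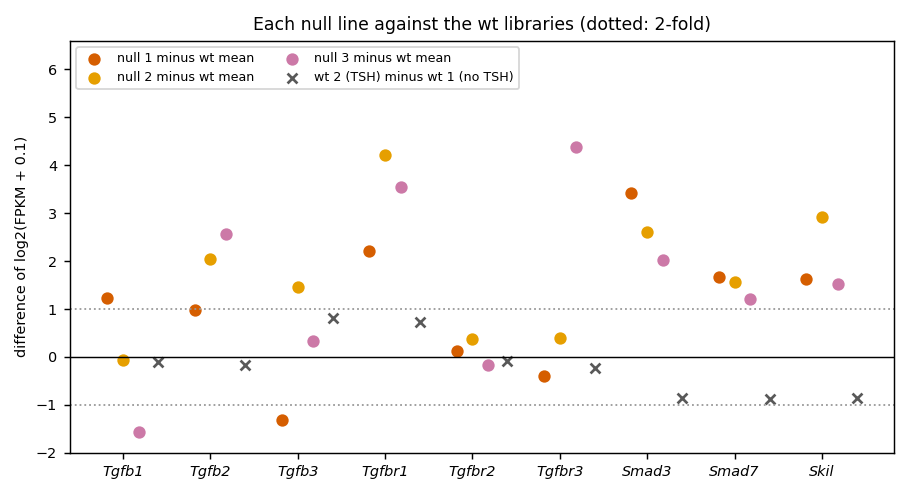
Difference of log2(FPKM + 0.1) of each null library from the mean of the 2 wt libraries (circles) and of wt replicate 2 (TSH) from wt replicate 1 (crosses), for the 9 genes, with dotted lines at a 2-fold difference. Smad3, Smad7, Skil and Tgfbr1 lie beyond 2-fold in all 3 null lines, and Tgfb1 runs from 1.23 in null replicate 1 to -1.56 in null replicate 3.

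Transcripts of the same gene were listed for Tgfbr2 and Skil. The Tgfbr2 transcripts are 4803 and 4728 bases long, a difference of 75 bases. The longer one took 50.4% of the estimated counts in wt replicate 1 (Wilson 95% interval 48.9 to 51.8%) and 26.5% in wt replicate 2 (25.2 to 27.8%). In null replicates 1, 2 and 3 it took 19.3% (18.2 to 20.4%), 29.4% (28.3 to 30.7%) and 23.7% (22.3 to 25.1%). Wt replicate 1 stood apart, and the null lines were close to wt replicate 2. For Skil, the 7066-base transcript was not listed in either wt library, which allows a share of up to 1.501% and 2.87% by the upper Wilson limits. It took 7.91% (6.04 to 10.4%), 39.7% (37.2 to 42.2%) and 24.9% (21.5 to 28.7%) in null replicates 1, 2 and 3, so the higher Skil of null replicate 2 came with the largest share of this transcript. These intervals cover counting error only, and the transcripts of a gene share most of their sequence, so the division of reads between them is an estimate of the counting program.

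The surrounding pathway was described with 69 other genes in 6 lists, of which 68 were tested. At an unadjusted p under 0.05, 17 of them were higher in null and 0 lower, against 12.4% and 6.07% of all genes. Of the 17, Nrros, Postn and Snai2 did not reach 10 counts in both wt libraries and were tested through their null counts, which leaves 14 among the 61 genes that did reach them. DESeq2 called 10 higher, among them Snai2, and 0 lower, against 8.48% and 3.71%. With edgeR, 0 were called at an adjusted p under 0.05. In CPM after TMM normalization, 20 lay above both wt libraries in every null library and 4 below, against 22.6% and 17.3% of all genes. In FPKM, 32 lay above and 1 below, against 35.9% and 7.22%. Both the 20 and the 32 above include Nrros, Postn and Snai2. The median log2 fold change of the 68 genes was 0.94, against 0.29 over all genes tested. It was 0.84 over the 65 genes left without those at 3 counts or fewer in each wt library.

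Genes of ligand latency and activation had the highest list median, 1.86 over 13 genes (1.82 with genes at 3 wt counts or fewer set to their lower bound), with 5 higher at an unadjusted p under 0.05, against 12.4% of all genes. The 5 are Ltbp2, Thbs1, Itgav, Itgb5 and Nrros, of which Nrros had 0 counts in both wt libraries and 11, 20 and 4 in null, and so passed the low-count filter through null alone. Thbs1, whose thrombospondin-1 releases TGF-β from its latent complex, had an FPKM of 2.82 and 5.13 in wt and 39.1, 109.2 and 109.5 in null replicates 1, 2 and 3. Every null line was well above wt (log2 fold change 3.79, SE 0.69, edgeR adjusted p = 0.180, and 5.24e-06 with DESeq2). The integrin subunits Itgav and Itgb5, which form a receptor for the latent complex, were also higher in every null line. Itgav had 4.43 and 3.12 in wt and 14.2, 28.5 and 10.3 in null (FPKM), and Itgb5 15.1 and 23.9 against 98.4, 143.9 and 81.8. Ltbp2, a matrix protein of the latent TGF-β binding family, had a log2 fold change of 2.10 (SE 0.66), and Furin, which cleaves the propeptide, 1.82 (SE 0.79). Ltbp1, the classic latency protein, overlapped, with an FPKM of 14.2 and 10.7 in wt and 7.32, 40.5 and 17.1 in null. The activating subunit Itgb6 was at 0 and 0.14 in wt and at 2.55, 0.03 and 0.82 in null. Lrrc32 (GARP), which tethers latent TGF-β to the cell surface, had 0.52 and 0.51 in wt and 1.78, 0.63 and 41.7 in null, so the group difference rests on null replicate 3. Ltbp4 was below wt in every null library in CPM (log2 fold change -0.81, SE 0.74), but not in FPKM.

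Other Smads and their regulators had a median log2 fold change of 1.05 over 14 genes, with 4 at an unadjusted p under 0.05 (Smad1, Smad5, Ski and Trim33), all higher, against 12.4% of all genes. Ski, the SnoN relative, had an FPKM of 4.45 and 3.86 in wt and 8.37, 19.5 and 20.5 in null, all above wt (log2 fold change 1.35, SE 0.51, edgeR adjusted p = 0.241). Zfyve9 (SARA), which presents Smads to the receptor, had 1.00 and 0.44 in wt and 2.51, 3.54 and 3.25 in null (log2 fold change 1.54, SE 0.72, edgeR adjusted p = 0.300). Trim33, a ubiquitin ligase that acts on Smad4, had 0.24 and 0.30 in wt and 1.43, 1.93 and 1.15 in null, and DESeq2 called it (adjusted p = 0.0301). Smad2, the partner of Smad3 at the receptor, differed less, at 2.36 and 1.63 in wt and 4.76, 5.30 and 3.94 in null, with a log2 fold change of 0.66 (SE 0.45). Smad4, the shared partner, had a log2 fold change of 0.12 (SE 0.40), with an FPKM of 15.4 and 17.2 in wt and 24.6, 30.4 and 25.4 in null. The phosphatase gene Ppm1a was below wt in every null library in CPM (log2 fold change -0.92, SE 0.45), but not in FPKM. Smad3 exceeded Smad2 in every library per length, and in null it also reached or exceeded the level of Smad4 in replicates 1 and 2.
The 7 other receptors tested, of 8 listed, had a median log2 fold change of -0.11, against 0.29 over all genes. None had an unadjusted p under 0.05, where 12.4% of all genes were higher and 6.07% lower. With 7 genes, a count of 0 is not set apart from these shares. Of these 7 receptors, only the type I receptor Acvr1b was without overlap in CPM, where 22.6% of all genes lay above and 17.3% below. Its FPKM was 2.50 and 2.27 in wt and 8.57, 5.32 and 6.76 in null. Endoglin (Eng), a co-receptor of endothelial and mesenchymal cells, was at 8.72 in null replicate 3 and at 1.12 or less in the other libraries, the same library in which betaglycan was high. Of 6 activin genes, Inhbb, the activin B subunit, had 0.27 and 0.10 in wt and 0.50, 12.3 and 3.32 in null, and DESeq2 called it (adjusted p = 0.00734). The activin antagonist Fst had 4.41 and 3.45 in wt and 7.83, 22.6 and 9.59 in null.

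The known target genes differed from line to line. Of 23, 6 were higher in null at an unadjusted p under 0.05 and 0 lower, against 12.4% and 6.07% of all genes, with a median log2 fold change of 0.66. The 6 include Postn and Snai2, which did not reach 10 counts in both wt libraries and so passed the low-count filter through null, and 4 remain without them. Pmepa1, a direct Smad target that limits the signal, had an FPKM of 5.75 and 3.82 in wt and 39.4, 26.1 and 7.87 in null (log2 fold change 1.82, SE 0.76, edgeR adjusted p = 0.269). Its highest library, null replicate 1, was also the highest for Smad3. Ccn2, a matricellular target, had 22.3 and 52.5 in wt and 147.5, 68.3 and 178.8 in null. Tgfbi, a secreted matrix protein, had 1.33 and 3.14 in wt and 1.45, 43.9 and 91.3 in null, with null replicate 1 at the wt level.

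In CPM, 4 of the targets lay above and 2 below both wt libraries in every null library, both smaller shares than the 22.6% and 17.3% of all genes. The 4 above include Postn and Snai2, which passed the low-count filter through null. Tnc (tenascin-C) was among those above, with an FPKM of 0.19 and 0.25 in wt and 7.71, 3.50 and 11.5 in null (log2 fold change 4.52, SE 0.76, edgeR adjusted p = 0.180, and 1.72e-07 with DESeq2). Fn1 (fibronectin) had 122.5 and 87.7 in wt and 233.9, 387.4 and 462.6 in null. Snai2 (Slug) had 0.22 and 0.03 in wt and 0.37, 1.7 and 5.56 in null, and Snai1 (Snail), below wt in every null library in CPM but not in FPKM, was at 23.6 and 31.8 in wt and 9.54, 3.87 and 25.1 in null. Ldlrad4, a target that restrains Smad activation, was the other gene below in CPM and also below in FPKM, at 6.13 and 6.85 in wt and 6.04, 5.06 and 3.44 in null (log2 fold change -0.998, SE 0.52, edgeR adjusted p = 0.344). Postn (periostin) had 0 counts in both wt libraries and 9617 counts in null replicate 3, at least 718.6-fold higher against 3 counts per library, but 2 counts in null replicate 2, so this fold rests on null replicate 3. Acta2, a contractile gene of myofibroblasts, was listed at 0 in null replicate 1, the library with the lowest fibroblast sum of 1.7, and had its highest level in null replicate 3, with 81.9 and 71.3 in wt and 0, 191.9 and 942.2 in null. The part of such cells or of a fibroblast-like state in the target list was not tested. Of the 5 genes that TGF-β is known to lower, 1 was higher and 0 lower at an unadjusted p under 0.05, where 12.4% of all genes were higher. Id2, a dominant-negative helix-loop-helix factor, had 0.97 and 1.21 in wt and 53.1, 9.85 and 10.6 in null, and DESeq2 called it (adjusted p = 0.00197).

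**Figure D5:**
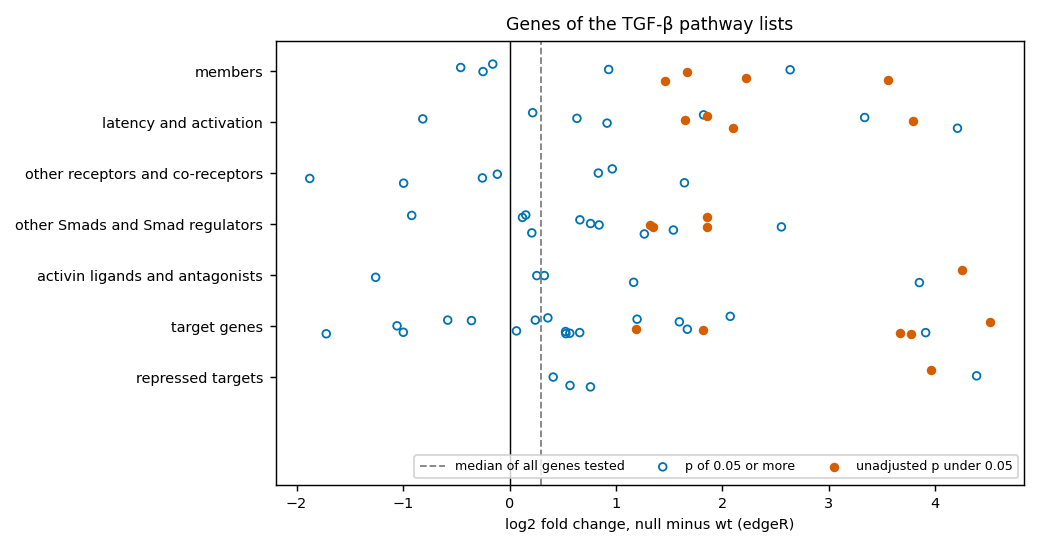
Log2 fold change of null against wt (edgeR, all 5 libraries) for the 9 genes and each gene of the 6 lists, filled where the unadjusted p is under 0.05, with the median of all genes tested dashed. Nrros, Itgb8 and Postn, with 3 counts or fewer in each wt library, are left out. No filled point lies below 0, and of the 6 lists the plotted genes of latency and activation have the highest median, 1.82.

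Genes with the most similar profile over the 5 libraries were sought by the root mean square difference of log2(FPKM + 0.1), each profile centred on its own mean. Within the pathway lists, Ski was nearest to Tgfb2 (0.144), Itgav to Skil (0.173), Smad2 to Smad7 (0.199), Cd109 to Tgfb3 (0.241), Smad4 to Tgfbr2 (0.324), Cdkn1a to Tgfb1 (0.326), Pmepa1 to Smad3 (0.487), Thbs1 to Tgfbr1 (0.535) and Eng to Tgfbr3 (0.680). This measure grows with a gene's own spread over the libraries, so its values are not compared between the 9 genes. Among 10736 genes with a mean FPKM of at least 1, the nearest were Nus1 for Tgfb2, Mex3c for Skil, Rtl8a for Smad7, Epha4 for Smad3, Smc2 for Tgfbr1 and Mreg for Tgfbr3. With 5 libraries many genes have similar profiles, and these are descriptions only.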

How the data were processed

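RNA from the 5 cell line libraries was sequenced from TruSeq libraries. The aligner, counting program, genome build and annotation are not given in the sources used here. The authors deposited, per RefSeq transcript and library, an estimated count (fractions occur) with FPKM, and the lowest FPKM listed is 0.01. Both were summed per NCBI gene number, and sums of counts were rounded. Of 17923 genes, 17866 were named from the RefSeq table of GRCm38.p6. Groups and replicate numbers were taken from the sample titles.

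Null was compared with wt by edgeR 4.0.16 under R 4.3.3 (TMM, filterByExpr by group, glmQLFit and glmQLFTest, Benjamini-Hochberg adjustment, threshold 0.05) over 13240 genes. The alternatives were DESeq2 1.42.0, no filter, a floor of 10 counts per library, limma-trend 3.58.1 on log2(FPKM + 0.1), with 0.01 or 1 added instead, on genes reaching 0.5 FPKM in 2 libraries, the replicate number as a block, and leaving out each library. Single values were compared with exact permutation tests over the 10 assignments of the libraries (scipy 1.17.1). The 9 genes and all lists were chosen with earlier results of these data known. Besides the 9 genes, the text names set pathway genes and, in each list, up to 4 genes by fold change whose groups do not overlap in CPM and whose mean FPKM in the higher group is at least 1, and others of the lists where a count or a contrast between lines needs them. Calls by DESeq2 alone are given as an alternative and not as changes. Some genes of the lists are not reported here.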

Additional observations from a re-analysis of the deposited data

How the results depend on the processing

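Over all genes, the counts of calls at an adjusted p under 0.05 moved from 0 higher and 0 lower with edgeR to 1113 and 487 with DESeq2. They were 0 and 4 without the filter on low counts and 0 and 1 with at least 10 counts in every library. With limma they were 1 and 5 on log2(FPKM + 0.1), 1 and 3 with 0.01 added and 1 and 7 with 1 added. DESeq2 called 2 of the 9 genes higher (Tgfbr1 with a log2 fold change of 3.47, Smad3 with 2.14). It also called 10 of the other pathway genes higher, among them Snai2, which was tested through its null counts. No other alternative called any of these genes. The cause of these differences was not tested. With so few libraries and so wide a spread, the absence of edgeR calls does not show that genes did not differ, and the adjusted p-values of DESeq2 may be too small, so neither count is a reliable number of changed genes.

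Of 105 fold changes of the 9 genes under the alternatives, 91 kept their direction and their side of the threshold and 12 turned direction. The fold change of Tgfb3 turned to 0.16, 0.16 and 0.17 with limma at 0.1, 0.01 and 1 added, and that of Tgfbr2 to 0.11 in each of these fits. Tgfbr3 has no value with limma, because its FPKM reached 0.5 in 1 library. Leaving out each library in turn gave between -1.29 and 0.13 for Tgfb1, between -1.04 and 0.45 for Tgfb3 and between -0.55 and 3.11 for Tgfbr3. With 1 wt library left, the spread rests on the null libraries alone. With the replicate number as a replicate block, Tgfb1 turned to 0.028 and Tgfbr3 to -0.57, and 0 genes were called. Whether the shared numbers pair the libraries was not settled. Across genes, the deviations from the group means correlated at -0.112 and -0.108 for the same-numbered libraries. With 2 wt libraries, the wt deviations mirror each other, so these correlations cannot decide it. Of 63 values of the ratios, 62 moved by less than the spread between replicates (among them an alternative chosen after seeing the data, with 0.1 added to FPKM), and the difference for Tgfbr2 to Tgfbr1 was -1.44 with 1 added to FPKM, since that addition exceeds Tgfbr1 in wt. That spread is wide, and 3 of the ratios with overlapping groups turned direction when a library was left out, with ranges of -1.71 to 0.52 for Tgfb1 to Tgfb3, -0.27 to 2.52 for Tgfbr3 to Tgfbr2 and -1.04 to 0.03 for Skil to Smad3. For Tgfb1 to Tgfb2 the range was -3.20 to -0.99. Tgfbr1 in wt rests on 14 and 36 counts.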
